A study of Xenopus laevis and Xenopus tropicalis with 12 samples.

Results

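The vegetal and animal hemispheres of Xenopus tropicalis oocytes were compared in 4 RNA sequencing libraries, out of 12 in a series that also covers Xenopus laevis. All libraries of X. tropicalis entered, namely 2 vegetal and 2 animal ones, one of each from female 1 and from female 2, so each vegetal library has an animal partner from the same frog. The oocytes were labelled as full grown and were dissected by hand. Strain, frog age, treatment and the number of oocytes per library are not given in the labels, and the vegetal and animal groups carried no label beyond hemisphere and frog. The tests of X. tropicalis rest on 2 females and compare the hemispheres within each frog. Their p-values rest mostly on a spread pooled over gene models, and little on the spread between the 2 frogs in a single gene.

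A frog oocyte is polarised. Its animal hemisphere is pigmented and holds the nucleus, while the vegetal hemisphere is rich in yolk and its cortex anchors maternal mRNAs that later act in the germ line, the endoderm and axis formation. Some vegetal mRNAs, those of the germ plasm, become trapped in the mitochondrial cloud of young oocytes and reach the cortex with it. Others, such as gdf1 (Vg1) and vegt, move later along microtubules with motor proteins and RNA-binding factors. The question was which of the measured mRNAs differed between the hemispheres of X. tropicalis, and by how much.

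The vegetal libraries of females 1 and 2 held 7772801 and 21699080 counts, and the animal libraries 11768136 and 28392285. Values below are in CPM, counts relative to library sizes scaled by edgeR's TMM method, always for female 1 and then female 2. They are not corrected for transcript length, so the levels of different genes are not compared. Of 28165 gene models, 12916 had enough counts to be tested, and 10281 of these carry a symbol. A count of 0 allowed a level of up to 0.393 and 0.142 CPM in the vegetal libraries and up to 0.248 and 0.104 CPM in the animal libraries (3 counts, covering counting error only). The oocyte-specific transcription factor figla was at 178 and 195 CPM in the vegetal and 160.3 and 177 CPM in the animal libraries, and the meiotic kinase mos at 288 and 272 against 295 and 271 CPM. Oocyte markers were not all as even, since dazl, bmp15, zp2 and zp3 were higher in vegetal, while zar1 was not called (all given below). Of 19 follicle cell markers found in the annotation, 6 had no count in any library, among them foxl2, fshr and cyp17a1, and 17 stayed under 1 CPM in every library. The others were gja1 (4.32 and 3.69 CPM in vegetal, 5.21 and 3.06 CPM in animal) and star (0.393 and 0.52 CPM in vegetal, 0.579 and 1.77 CPM in animal). The whole follicle list summed to 7.2 and 6.1 CPM in vegetal and 7.69 and 6.89 CPM in animal libraries, most of it gja1 in the vegetal libraries and in the animal library of female 1. Sums of the blood and endothelial list (20 found) lay between 14.1 and 21.9 CPM, those of the immune list (10 found) between 4.92 and 6.81 CPM, and those of the connective tissue list (17 found) between 77.3 and 94.7 CPM, most of it fibronectin. Fn1 had 77.5 and 71.3 CPM in vegetal, 60.4 and 60.8 CPM in animal, a log2 ratio of 0.29 ± 0.08 (adjusted p = 0.00122, edgeR; 0.59 without the block). The liver and yolk list (13 found) summed to 31.4 and 28.3 CPM in vegetal and 62.6 and 49.8 CPM in animal libraries, nearly all of it transferrin (tf), which was higher in animal (log2 ratio -0.93 ± 0.09, adjusted p = 1.12e-17, edgeR; 0.123 without the block). In bulk RNA of this kind, fewer cells of a type and less RNA per cell cannot be told apart.

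Differences between the hemispheres ran in both directions, but the large ones were of another kind on each side. At an adjusted p under 0.05 (edgeR quasi-likelihood test with the female as a block, Benjamini-Hochberg over all models), 2020 models (15.6% of those tested) were higher in the vegetal and 2236 (17.3%) in the animal libraries. At least 2-fold, here called enriched, 425 models (3.29%) were vegetal and 469 (3.63%) animal. Of these, 373 vegetal and 337 animal models passed 2-fold in each female taken alone. At least 16-fold differences were fitted for 21 vegetal and 44 animal models, yet the levels behind them differed, and a ratio fitted to libraries without counts depends on the small count added. Of the 164 vegetal models of at least 4-fold, 106 had a symbol and 120 averaged 5 CPM or more. Of the 107 animal models of at least 4-fold, 32 had a symbol and 12 such a level, and their median level was 1.02 CPM, against 42.8 CPM for the vegetal ones.

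The same contrast showed across the range of levels. Under 1 CPM, 2.38% of 966 tested models were vegetal-enriched and 9.73% animal-enriched. From 5 to 20 CPM both shares were 2.99% of 2339 models, and at 100 CPM or more they were 3.98% vegetal and 2.32% animal of 2842. No vegetal-enriched model lacked counts in both animal libraries, while 15 animal-enriched models had no count in either vegetal library, and the vegetal libraries were the shallower member of each pair. The parts of that depth difference and of the filter in the count were not tested. Together the 425 vegetal-enriched models held 71366 and 66171 CPM in the vegetal libraries, against 14617 and 13727 CPM in the animal libraries. The 469 animal-enriched models held 11931 and 11031 CPM in the vegetal libraries, against 30252 and 27356 CPM in the animal libraries. Both sums describe models chosen by this difference.

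**Figure D1:**
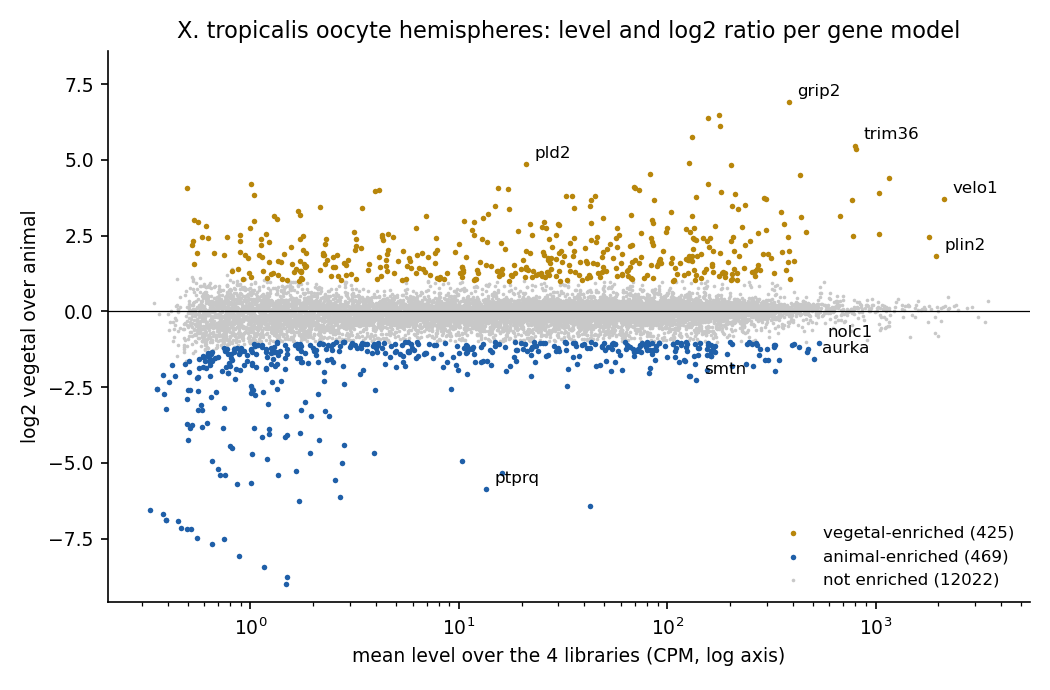
Each point is a tested gene model, with its mean level over the 4 libraries on a log axis in CPM and its log2 ratio of vegetal over animal on the vertical axis. The 425 vegetal-enriched models (gold) reach high ratios at high levels, as for grip2, trim36 and velo1, while most of the 469 animal-enriched models (blue) below a log2 ratio of -2 lie at low levels.

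The balance of the calls depended on scaling and on the block. With libraries scaled by their total counts alone, 1436 models were called vegetal and 2743 animal, so the vegetal share of calls was 34.4%, against 47.5% with TMM factors, and the median log2 ratio of all models was -0.067 in place of -0.007. Without the female as a block, 172 vegetal-enriched and 84 animal-enriched models were called, of which 172 and 83 are among those above. With no block and 1 library left out, the counts were 143 and 21 without the vegetal library of female 1, 113 and 13 without that of female 2, 319 and 217 when the animal library of female 1 was dropped, and 280 and 258 when that of female 2 was. Each of these fits leaves a frog without its pair, so differences between the frogs enter its ratios. Over all models, 15.6% were called vegetal and 17.3% animal, and the median log2 ratio was -0.007. The counts of each list below are to be read against these shares. Each list is also given with its number of calls under total-count scaling and with the number of its calls that held without the block. Over all models, 174 of 2020 vegetal and 88 of 2236 animal calls held without the block. A list that kept few of its calls there was thus like the models as a whole.

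The ratios of the single females were compared without a test. Over all 12916 tested models, 74.2% had the same direction in both females, and the median difference between their log2 ratios was 0.16, without regard to sign. The median difference between the females' own log2 ratios was 0.22 for vegetal-enriched and 0.26 for animal-enriched models. Of the 425 vegetal-enriched models 423 had the direction of the call in both females, as had 468 of the 469 animal-enriched ones, in a test that favours models alike in both females.

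**Figure D2:**
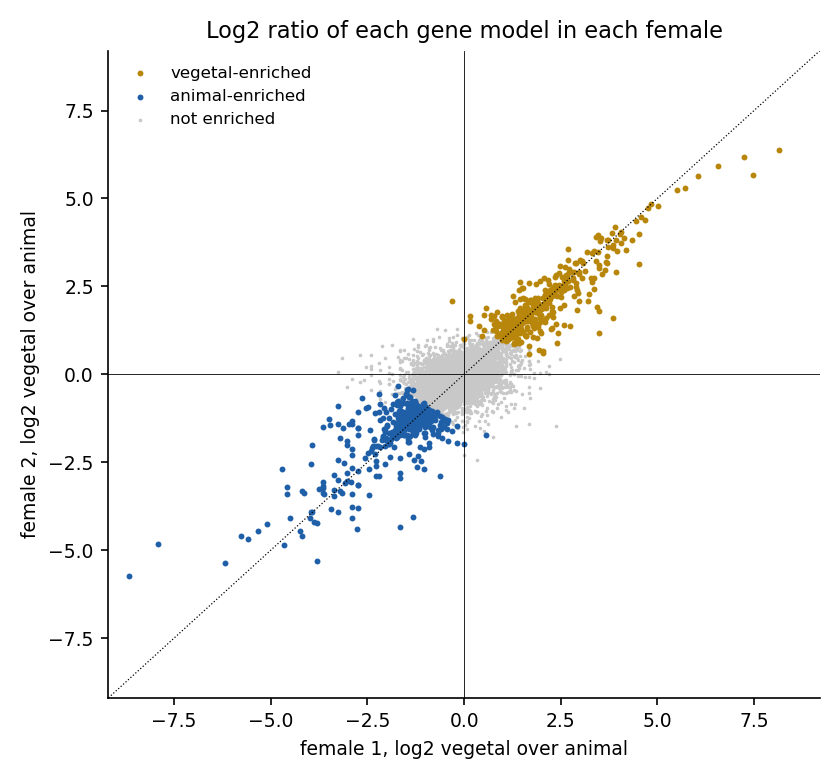
Each point is a tested gene model, with the log2 ratio of vegetal over animal in female 1 on the horizontal axis and in female 2 on the vertical axis, and a dotted line of equality. The 425 vegetal-enriched models (gold) lie in the upper right and the 469 animal-enriched ones (blue) in the lower left, with 3 exceptions in all.

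Germ plasm mRNAs had 3 of the largest vegetal ratios among models with a symbol, while ddx4 and the Tudor genes of the same list were not called vegetal. The PDZ domain protein grip2, a germ plasm mRNA, had 882 and 636 CPM in the vegetal libraries, against 2.98 and 7.55 CPM in the animal libraries. The germ plasm mRNA pat had 341 and 365 CPM in the vegetal libraries, against 3.47 and 5.95 CPM in the animal libraries, and nanos1, which encodes a translational repressor of the germ line, had 211 and 307 CPM in the vegetal libraries, against 3.06 and 6.09 CPM in the animal libraries. For all 3 the lowest vegetal library lay far above the highest animal one. The log2 ratios were 6.90 ± 0.10 for grip2, 6.13 ± 0.09 for pat and 5.77 ± 0.10 for nanos1 (adjusted p = 1.08e-116, 7.3e-115 and 3.09e-110, edgeR), and of the 3 grip2 differed most between the frogs, at 8.16 in female 1 and 6.37 in female 2.

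Among the more highly counted germ plasm mRNAs, ddx25, a DEAD-box helicase, had 1635 and 1501 CPM in the vegetal libraries, against 35.9 and 39.5 CPM in the animal libraries. The germ plasm scaffold velo1 had 4405 and 3549 CPM in the vegetal libraries, against 308 and 293 CPM in the animal libraries. The libraries of the hemispheres did not overlap for either, with log2 ratios of 5.36 ± 0.08 and 3.72 ± 0.07. The reticulon rtn3 followed (1565 and 1303 CPM in vegetal, 119 and 105 CPM in animal, log2 3.67 ± 0.07), as did the RNA-binding protein rbpms2, also known as Hermes (3565 and 2533 CPM in vegetal, 637 and 466 CPM in animal, log2 2.46 ± 0.06). Of the factors that protect and translate germ line mRNAs, dnd1 had 371 and 417 CPM in the vegetal libraries, against 24.2 and 29.2 CPM in the animal libraries, and dazl had 588 and 516 CPM in the vegetal libraries, against 37.7 and 45.5 CPM in the animal libraries. Their log2 ratios were 3.88 ± 0.07 and 3.70 ± 0.07, and otx1, a homeobox gene on the same list, was at 2.86 ± 0.11 (44.7 and 62.3 CPM in vegetal, 5.29 and 9.22 CPM in animal). These 10 members, of 16 tested, made up all the vegetal calls of the list, and all 10 were also called without the block.

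The other germ cell mRNAs on the list were not called vegetal. The helicase ddx4, also known as Vasa, had 66.3 and 59.7 CPM in the vegetal libraries, against 66.9 and 60.2 CPM in the animal libraries, a log2 ratio of -0.01 ± 0.08 (adjusted p = 0.925, edgeR). The Tudor protein mRNA tdrd7 had 77.5 and 79.3 CPM in vegetal, 87.4 and 83.7 CPM in animal (-0.12 ± 0.07, adjusted p = 0.209). Slightly higher in animal were tdrd5 (107 and 84.5 CPM in vegetal, 128 and 101 CPM in animal, log2 -0.26 ± 0.07) and tdrd6 (105 and 42.4 CPM in vegetal, 143 and 47.2 CPM in animal, log2 -0.30 ± 0.07), neither of them called without the block. Tdrd6 values differed more between the frogs than between the hemispheres. The synaptonemal complex gene sycp3 (0.29 ± 0.32) and gpr157 (0.07 ± 0.07) were not called. The median log2 ratio over the 16 tested members was 3.26, against -0.007 over all models, and total-count scaling gave 10 and 3 calls.

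Vegetal mRNAs outside the germ plasm list were next, among them gdf1 and vegt of the later transport route. The ubiquitin ligase trim36, which acts on cortical microtubules, had 1746 and 1374 CPM in the vegetal libraries, against 33.3 and 35.2 CPM in the animal libraries, and the Wnt ligand wnt11b had 404 and 378 CPM in the vegetal libraries, against 14 and 13.2 CPM in the animal libraries. The TGF-beta family ligand gdf1 had 248 and 264 CPM in the vegetal libraries, against 18.8 and 18.5 CPM in the animal libraries, and the convertase pcsk6, which cleaves such ligands, had 161 and 157 CPM in the vegetal libraries, against 6.61 and 6.99 CPM in the animal libraries. In each of the 4 genes both vegetal libraries exceeded both animal libraries by more than 10 times. Their log2 ratios were 5.47 ± 0.08, 4.85 ± 0.08, 3.79 ± 0.08 and 4.53 ± 0.09 in that order (adjusted p between 2.17e-120 and 1.22e-95, edgeR). Vegt, a T-box factor that acts in endoderm formation, had 46.4 and 65.9 CPM in vegetal, 10.4 and 13.3 CPM in animal, a smaller ratio of 2.25 ± 0.10. Other members were the KH domain repressor bicc1 (885 and 777 CPM in vegetal, 34.7 and 37 CPM in animal, log2 4.51 ± 0.07), the kinesin linker sybu, also known as syntabulin (467 and 402 CPM in vegetal, 35.6 and 38.6 CPM in animal, log2 3.52 ± 0.07), and the lipid droplet protein plin2 (3249.9 and 2829 CPM in vegetal, 877 and 836 CPM in animal, log2 1.82 ± 0.06). The ligand efnb1 differed nearly 4 times between frogs within each hemisphere (34.3 and 8.99 CPM in vegetal, 6.61 and 1.7 CPM in animal), while its ratio was alike (2.36 in female 1 and 2.32 in female 2). Known vegetal mRNAs were called without exception among the 18 tested, and efnb1 was the one not called without the block. The list was chosen with earlier results of these data known and shares members with the germ plasm list, so it is no separate support. The list's median log2 ratio was 3.83, and total-count scaling gave 18 and 0 calls. Without the block, otx1 and vegt were called in all but the fit without the vegetal library of female 2, with log2 values of 2.54 to 3.35 and of 1.96 to 2.49 over the 4 fits without 1 library.

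**Figure D3:**
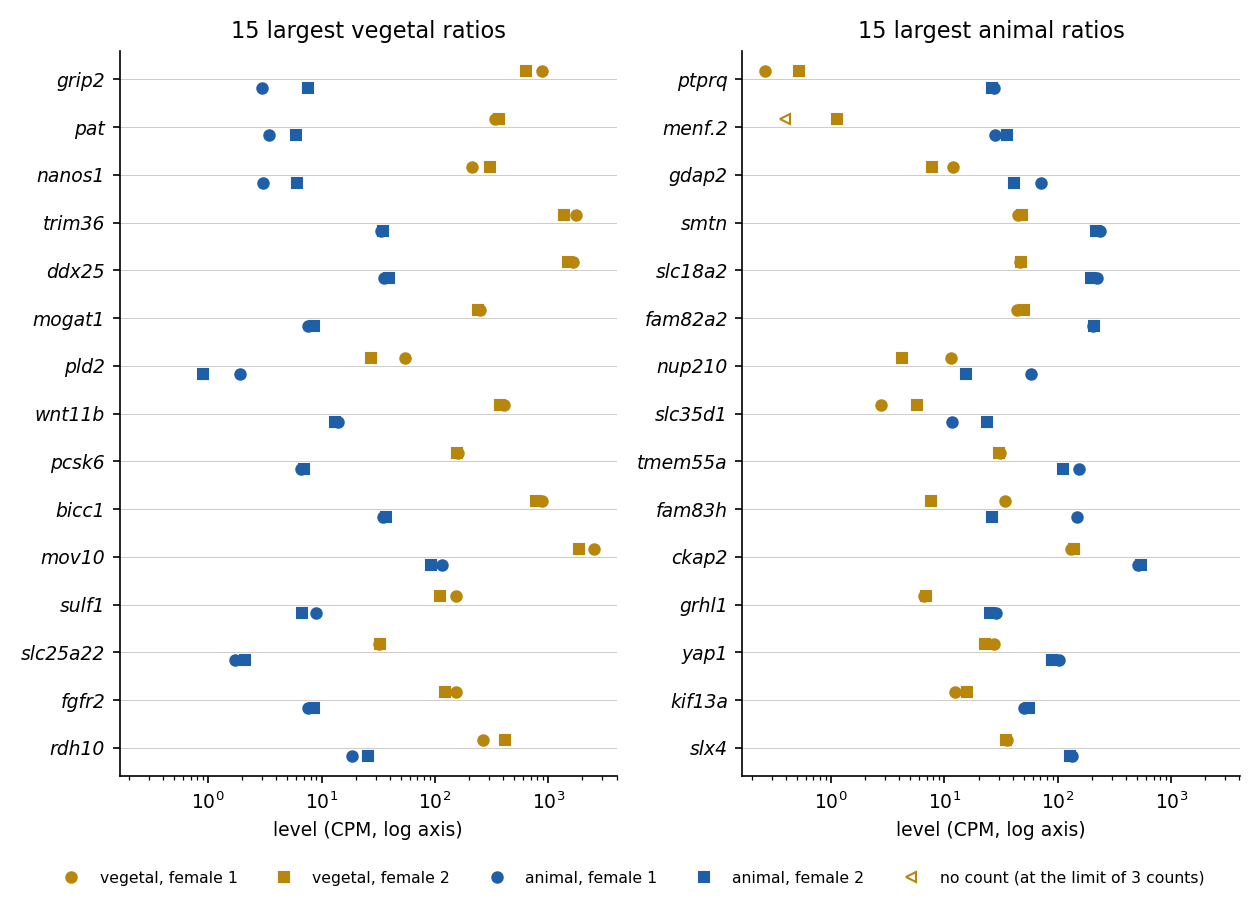
Levels in CPM on a log axis in each of the 4 libraries for the 15 vegetal (left panel) and 15 animal genes (right panel) with the largest ratios; gold marks are vegetal and blue marks animal libraries, circles female 1 and squares female 2, and an open triangle a library with no count, drawn at its limit of 3 counts. The genes were chosen among those with the same direction in both females, and the levels of nup210 and fam83h differ between the frogs in both hemispheres.

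Several of the largest vegetal ratios belonged to genes outside these groups. Mogat1, a monoacylglycerol acyltransferase, had 250.3 and 241 CPM in the vegetal libraries, against 7.6 and 8.59 CPM in the animal libraries, and the phospholipase pld2 had 54.1 and 27.1 CPM in the vegetal libraries, against 1.9 and 0.905 CPM in the animal libraries. The mitochondrial glutamate carrier slc25a22 had 32.2 and 32.7 CPM in the vegetal libraries, against 1.74 and 2.12 CPM in the animal libraries. All 3 were more than 10 times higher in the vegetal library of each frog, with log2 ratios of 4.89 ± 0.09, 4.86 ± 0.17 and 4.02 ± 0.16. The RNA helicase mov10 had 2543 and 1882 CPM in the vegetal libraries, against 116 and 92.4 CPM in the animal libraries, a log2 ratio of 4.40 ± 0.07. Also among the 15 largest vegetal ratios were those of the heparan sulfate sulfatase sulf1 (153 and 112 CPM in vegetal, 9.01 and 6.72 CPM in animal, log2 4.07 ± 0.09), of the FGF receptor fgfr2 (154 and 123 CPM in vegetal, 7.52 and 8.63 CPM in animal, log2 4.02 ± 0.09) and of rdh10, which makes the retinoic acid precursor retinal (265 and 419 CPM in vegetal, 18.7 and 25.7 CPM in animal, log2 3.95 ± 0.08). All 15 genes with the largest vegetal ratios stayed called without the block and in each fit without 1 library. Of these 15 the value that moved most was that of grip2, from 6.65 to 8.0 over those 4 fits.

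Named animal mRNAs averaging 5 CPM or more reached smaller ratios, apart from 2 genes. The receptor tyrosine phosphatase ptprq had 0.262 and 0.52 CPM in the vegetal libraries, against 27.2 and 26.3 CPM in the animal libraries, and menf.2, annotated as a mesendoderm nuclear factor, had 0 and 1.13 CPM in the vegetal libraries, against 27.8 and 35.4 CPM in the animal libraries. In the vegetal library of female 1 both were under the limit of 3 counts, and menf.2 had no count there. Their fitted log2 ratios were -5.86 ± 0.23 and -5.34 ± 0.21, of which that of menf.2 depends on the small count added to a library at 0, and menf.2 was not called without the block (adjusted p = 0.0782, edgeR). The actin-associated smoothelin gene smtn had 44.1 and 48.3 CPM in the vegetal libraries, against 235 and 219 CPM in the animal libraries, the vesicular monoamine transporter slc18a2 had 46.4 and 47.7 CPM in the vegetal libraries, against 223 and 198 CPM in the animal libraries, and fam82a2 had 43.9 and 49.99 CPM in the vegetal libraries, against 205 and 208 CPM in the animal libraries. These hemispheres were well apart in both frogs, at -2.28 ± 0.07, -2.14 ± 0.07 and -2.12 ± 0.07.

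The other animal genes among the 15 with the largest ratios lay between log2 ratios of -2.47 and -1.87. The cytoskeleton-associated protein ckap2 had 131 and 138 CPM in the vegetal libraries, against 513 and 539 CPM in the animal libraries, and a log2 ratio of -1.97 ± 0.06, the same in both frogs. The Hippo pathway co-activator yap1 had 27.4 and 22.8 CPM in vegetal, 103 and 89.4 CPM in animal (-1.95 ± 0.08), the nuclease scaffold slx4 35.9 and 35.2 CPM in vegetal, 134 and 127 CPM in animal (-1.87 ± 0.08), and the kinesin kif13a 12.3 and 15.7 CPM in vegetal, 49.8 and 55.8 CPM in animal (-1.89 ± 0.10). The lipid phosphatase tmem55a was at -2.05 ± 0.08 (30.6 and 30.6 CPM in vegetal, 154 and 110.1 CPM in animal) and gdap2 at -2.47 ± 0.11 (11.9 and 7.8 CPM in vegetal, 71 and 41.2 CPM in animal). Levels differed by frog as well as by hemisphere in 3 genes, the nucleoporin nup210 (11.4 and 4.21 CPM in vegetal, 57.5 and 15.7 CPM in animal, log2 -2.12 ± 0.13), fam83h (34.3 and 7.57 CPM in vegetal, 148 and 26.2 CPM in animal, log2 -1.97 ± 0.10) and the nucleotide sugar transporter slc35d1 (2.75 and 5.67 CPM in vegetal, 11.7 and 23.7 CPM in animal, log2 -2.07 ± 0.16). Their vegetal library was the lower one in each frog, as the choice of these genes required. Over both frogs the vegetal and animal values of fam83h overlapped, while those of nup210 and slc35d1 did not. Without the block, menf.2, gdap2, nup210, slc35d1 and fam83h were not called, nup210 moved between -3.09 when vegetal of female 1 was dropped and -1.04 when animal of female 1 was, and fam83h moved between -3.50 and -0.35 with 1 library left out, the smallest size coming without the animal library of female 1. Of the 15 animal genes with the largest ratios, 7 were called in each of the 4 fits without 1 library.

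By number of reads, the enriched mRNAs were led in part by other genes. On the vegetal side they were velo1, plin2, rbpms2, mov10, ddx25 and trim36, all described above. On the animal side they were the nucleolar phosphoprotein nolc1 (353 and 349 CPM in vegetal, 703 and 744 CPM in animal, log2 -1.04 ± 0.06), the mitotic kinase aurka (271 and 242 CPM in vegetal, 795 and 719 CPM in animal, log2 -1.56 ± 0.06), btbd17 (268 and 264 CPM in vegetal, 701 and 649.8 CPM in animal, log2 -1.34 ± 0.06), the melanosome fibril protein pmel (271 and 249.9 CPM in vegetal, 624 and 562 CPM in animal, log2 -1.19 ± 0.06), the DNA polymerase epsilon subunit pole2 (271 and 254 CPM in vegetal, 544 and 548 CPM in animal, log2 -1.06 ± 0.06) and tmem57 (161 and 183 CPM in vegetal, 482 and 555 CPM in animal, log2 -1.59 ± 0.06). All 6 were called without the block. Models with no symbol supplied 145 of the 425 vegetal-enriched and 176 of the 469 animal-enriched models, though 79.6% of all tested models have a symbol. Xetrov72022738 had 344 and 361 CPM in the vegetal libraries, against 2.15 and 4.87 CPM in the animal libraries (6.49 ± 0.10). On the animal side Xetrov72037541 had 0.131 and 1.18 CPM in the vegetal libraries, against 101 and 68.4 CPM in the animal libraries (-6.42 ± 0.16). It was under the limit of 3 counts in the vegetal library of female 1, and its ratio lay between -9.25 and -6.13 in the fits without 1 library. Both models were chosen among those with the same direction in each frog.

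Most signalling genes were not called, as was so over all models, where 8660 of 12916 were not. Uncalled were 24 of 40 in the TGF-beta and BMP list and 25 of 47 in the Wnt list. In the FGF, EGF and ephrin list 23 of 33 were uncalled. Single members were strongly vegetal. In the TGF-beta and BMP list, 9 were higher in the vegetal and 7 in the animal libraries of 40 tested, with a median log2 ratio of 0.09. Total-count scaling gave 8 vegetal and 7 animal calls, and 2 and 0 of the calls held without the block. Besides gdf1 and pcsk6, the vegetal ligands were bmp2 (189.8 and 199.5 CPM in vegetal, 109 and 117 CPM in animal, log2 0.78 ± 0.06), bmp15, an oocyte growth factor (289 and 316 CPM in vegetal, 153 and 174 CPM in animal, log2 0.89 ± 0.06), and gdf9 (26.5 and 37 CPM in vegetal, 17.4 and 33.6 CPM in animal, log2 0.30 ± 0.10). Receptors split: acvr2b (1.06 ± 0.20) and acvr1 (0.37 ± 0.08) were vegetal, tgfbr1 (-0.22 ± 0.07) animal, and bmpr1a (0.03 ± 0.10), acvr1b (0.01 ± 0.18) and acvr2a (0.21 ± 0.17) were not called. The call of tgfbr1 was lost in DESeq2 (adjusted p = 0.222) and without the block (adjusted p = 0.837, edgeR). The animal call of bmpr2 rested on few reads (0.262 and 0.142 CPM in vegetal, 1.07 and 0.731 CPM in animal, log2 -2.19 ± 0.67). The ratios of gdf9 and acvr1 changed sign in fits without the block that left out 1 library, where differences between the frogs enter the ratio. Within each frog, gdf9 was higher in the vegetal library. The call of gdf9 was lost in DESeq2 (adjusted p = 0.254), without the block (adjusted p = 0.958, edgeR) and under total-count scaling (adjusted p = 0.0815, edgeR). The Smad transducers smad1 (292 and 289.9 CPM in vegetal, 298 and 318 CPM in animal, log2 -0.08 ± 0.06), smad2 (-0.40 ± 0.18), smad3 (0.13 ± 0.06) and smad4.1 (-0.05 ± 0.24) were not called. Among inhibitors, the Nodal antagonist dand5 (3.14 and 1.94 CPM in vegetal, 10.3 and 6.12 CPM in animal, log2 -1.68 ± 0.23) and the ligase smurf2 (15.8 and 8.99 CPM in vegetal, 31.9 and 16.5 CPM in animal, log2 -0.94 ± 0.13) were animal, and the pseudoreceptor bambi was vegetal (0.30 ± 0.06). The ligand gdf3, also known as Derriere, had 3.67 and 6.62 CPM in vegetal, 3.88 and 5.98 CPM in animal and was not called (0.08 ± 0.21, adjusted p = 0.812, edgeR).

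In the Wnt list, 16 of 47 tested were higher in the vegetal (34.0%) and 6 in the animal libraries (12.8%). Over all models the shares were 15.6% and 17.3%. The list's median log2 ratio was 0.08. There were 13 vegetal and 8 animal calls under total-count scaling, while 3 and 0 calls held without the block. After wnt11b the vegetal members with the lowest adjusted p were btrc, the ligase adaptor that marks beta-catenin for degradation (237 and 373 CPM in vegetal, 89.7 and 141 CPM in animal, log2 1.40 ± 0.06), the formin daam1 of the planar polarity branch (214 and 228 CPM in vegetal, 86.4 and 82.7 CPM in animal, log2 1.40 ± 0.07) and the nuclear co-activator pygo1 (98.2 and 121 CPM in vegetal, 32.9 and 39 CPM in animal, log2 1.61 ± 0.08). Animal members were the planar polarity gene prickle1 (25.1 and 23.2 CPM in vegetal, 60.8 and 46.7 CPM in animal, log2 -1.12 ± 0.09), the receptor fzd7 (41.6 and 47.5 CPM in vegetal, 70 and 80.2 CPM in animal, log2 -0.75 ± 0.08), bcl9 (-0.58 ± 0.09) and csnk1g1 (-0.37 ± 0.07). In the FGF, EGF and ephrin list, 6 were higher in the vegetal and 4 in the animal libraries of 33, with a median log2 ratio of -0.10. Scaled by totals, the list had 5 vegetal and 9 animal calls, and without the block 1 and 0 of its calls held. Of the FGF receptors, fgfr2 was strongly vegetal (above), fgfr3 was vegetal (7.33 and 9.69 CPM in vegetal, 2.4 and 2.12 CPM in animal, log2 1.99 ± 0.22), and fgfr4 was called animal on few reads (0 and 0.189 CPM in vegetal, 0.744 and 0.696 CPM in animal, log2 -2.32 ± 0.74). The adaptor irs1 was vegetal (0.95 ± 0.09), and the exchange factor sos1 animal (-0.39 ± 0.08).

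Maternal transcription factors included polarised genes on each side. Of 78 tested, 19 (24.4%) were higher in the vegetal and 17 (21.8%) in the animal libraries, against 15.6% and 17.3% over all models. The list's median log2 ratio was 0.05. The counts became 16 vegetal and 20 animal with total-count scaling, and 4 and 1 calls held without the block. After vegt and otx1, the endodermal SOX factor sox7 was vegetal (243 and 229.6 CPM in vegetal, 29.6 and 24.3 CPM in animal, log2 3.15 ± 0.07). The animal ones with the lowest adjusted p included grhl1, an epidermal factor (6.55 and 6.9 CPM in vegetal, 28.8 and 25.4 CPM in animal, log2 -1.97 ± 0.14), foxi2, an activator of ectodermal genes (4.58 and 8.75 CPM in vegetal, 11.2 and 19.6 CPM in animal, log2 -1.20 ± 0.15), and klf6 (-0.54 ± 0.07). The list of known animal mRNAs did not behave as a block: of 10 tested, 2 were higher in the vegetal and 4 in the animal libraries, with a median log2 ratio of 0.08. Total-count scaling left those counts at 2 and 4. Its vegetal calls were sox3 (9.95 and 11.8 CPM in vegetal, 5.62 and 9.36 CPM in animal, log2 0.50 ± 0.16) and the POU factor oct25 (79.4 and 70.8 CPM in vegetal, 57.3 and 54.9 CPM in animal, log2 0.41 ± 0.08), and its animal ones grhl1, foxi2, dand5 and the ATP synthase subunit atp5a1 (-0.33 ± 0.06). Not called were zic2 (0.09 ± 0.06), ddx3x (0.09 ± 0.06), kpna2 (0.07 ± 0.06) and trim33 (0.10 ± 0.09). Grhl1 was the one call of the list that held without the block.

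Factors that carry, store and translate mRNA were divided too. The transport list had 10 vegetal and 10 animal calls of 36 tested, with a median log2 ratio of 0.05. With total-count scaling 8 vegetal and 11 animal members were called, and 1 and 0 of the calls held without the block. Kif3b, a subunit of the kinesin-2 motor that carries vegetal mRNA, was vegetal (189 and 193 CPM in vegetal, 96.5 and 73.3 CPM in animal, log2 1.2 ± 0.07), as were the RNP protein lsm14b (202 and 188 CPM in vegetal, 126 and 101 CPM in animal, log2 0.80 ± 0.06) and the dynein adaptor bicd2 (0.49 ± 0.06). The RNA-binding protein khsrp was animal (113 and 131 CPM in vegetal, 181 and 199.97 CPM in animal, log2 -0.64 ± 0.06), as were kif4a (57.5 and 38.8 CPM in vegetal, 141 and 76.4 CPM in animal, log2 -1.12 ± 0.08) and rbm20 (-1.30 ± 0.22). The translation control list had 23 vegetal (33.3%) and 15 animal (21.7%) calls of 69, against 15.6% and 17.3% over all models. Its median log2 ratio was 0.05. When scaled by totals the list had 20 vegetal and 20 animal calls, with 4 and 0 calls left when the block was dropped. After bicc1 and dazl, examples come from the CCR4-NOT deadenylase complex, whose subunits cnot1 (161 and 121 CPM in vegetal, 261 and 169 CPM in animal, log2 -0.59 ± 0.06) and cnot10 (135 and 143 CPM in vegetal, 231 and 236 CPM in animal, log2 -0.75 ± 0.06) were animal, with the antiproliferative gene btg2 (-0.50 ± 0.06). Among DEAD and DEAH helicases there were 10 vegetal and 12 animal calls of 50, with a median log2 ratio of 0.03. By library totals alone there were 7 vegetal and 14 animal calls, and dropping the block left 1 and 0 of the calls. Ddx59 (1.35 ± 0.07) and the storage granule helicase ddx6 (0.59 ± 0.07) were vegetal next to ddx25. Ddx56 (-1.25 ± 0.08) and ddx49 (-0.66 ± 0.07) were animal.

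The piRNA and nuage list, whose genes silence transposons in the germ line, had 4 vegetal and 8 animal calls of 29 tested, with a median log2 ratio of -0.10. Total-count scaling gave 2 vegetal and 9 animal calls, and 2 and 0 of the calls held without the block. The Piwi proteins piwil1, piwil2 and piwil3 were not called (-0.26 ± 0.26, -0.20 ± 0.14 and -0.17 ± 0.12). Nor were the nuage components mael (120.1 and 102 CPM in vegetal, 124 and 98 CPM in animal, log2 0.01 ± 0.07) and mov10l1 (349 and 254 CPM in vegetal, 327 and 229.5 CPM in animal, log2 0.12 ± 0.06), in contrast to the related helicase mov10. The other vegetal member of more than 2-fold was exd1 (113 and 91.7 CPM in vegetal, 35 and 30.2 CPM in animal, log2 1.64 ± 0.08), and tdrd3 (0.24 ± 0.08) and ddx39a (0.18 ± 0.06) were vegetal at small size. Animal calls went to the piRNA methyltransferase henmt1 (0.917 and 1.42 CPM in vegetal, 3.31 and 4.35 CPM in animal, log2 -1.67 ± 0.30), to gtsf1 (153 and 122 CPM in vegetal, 247 and 165 CPM in animal, log2 -0.56 ± 0.06), gpat2 (-0.66 ± 0.14), tdrkh (-0.37 ± 0.06), wdr77 (-0.28 ± 0.07) and tdrd1 (1.57 and 0.709 CPM in vegetal, 2.81 and 1.88 CPM in animal, log2 -1.16 ± 0.36). None of the 8 animal calls held without the block, where 88 of 2236 animal calls over all models did.

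Cell cycle genes contained polarised kinases on both sides. Genes of meiosis and the cycle had 31 vegetal (36.0%) and 20 animal (23.3%) calls of 86 tested, against 15.6% and 17.3% over all models. The list's median log2 ratio was 0.06. There were 22 vegetal and 22 animal calls under total-count scaling, while 2 and 2 calls held without the block. The polo-like kinase plk3 had 659 and 910.4 CPM in the vegetal libraries, against 77.9 and 101 CPM in the animal libraries, the spindle checkpoint kinase bub1 had 154 and 143 CPM in the vegetal libraries, against 421 and 382 CPM in the animal libraries, and aurka is given above. The vegetal and animal libraries were apart for both genes, at 3.13 ± 0.07 and -1.43 ± 0.06. Smaller vegetal ratios were those of rps6ka3, a Rsk kinase downstream of Mos (1.16 ± 0.06), of the kinetochore motor cenpe (0.87 ± 0.06) and of the checkpoint kinase ttk (0.59 ± 0.06). The anaphase-promoting complex subunit cdc27 (-0.77 ± 0.06) and the adenylyl cyclase adcy3 (-0.89 ± 0.08) were animal. The replication and repair list had 9 vegetal (9.68%) and 22 animal (23.7%) calls of 93, against 15.6% and 17.3% over all models. Its median log2 ratio was -0.04. Scaled by totals, the list had 4 vegetal and 33 animal calls, and without the block 2 and 2 of its calls held. The checkpoint kinase chek1 was vegetal (618 and 414 CPM in vegetal, 101 and 62.1 CPM in animal, log2 2.68 ± 0.07), while the replicative helicase subunit mcm2 (199.7 and 217 CPM in vegetal, 457 and 444 CPM in animal, log2 -1.11 ± 0.06) and the replication factor mcm10 (-0.62 ± 0.06) were animal with pole2.

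Among mRNAs of nuclear proteins, those of the nuclear pore and of chromatin had more animal than vegetal calls under both scalings, as had all models. In the nuclear pore list 11.6% were vegetal and 27.5% animal, and in the chromatin list 15.3% and 27.8%. The shares over all models were 15.6% and 17.3%. Nucleoporins and transport factors had 8 vegetal and 19 animal calls of 69 tested, with a median log2 ratio of -0.01. The counts became 7 vegetal and 24 animal with total-count scaling, and 0 and 2 calls held without the block. After nup210, nup214 had 95 and 97.8 CPM in vegetal, 239 and 227 CPM in animal (-1.27 ± 0.07), aaas 45.2 and 49.1 CPM in vegetal, 107 and 119 CPM in animal (-1.27 ± 0.07) and nup188 107 and 98.3 CPM in vegetal, 183 and 165 CPM in animal (-0.76 ± 0.07). The LEM domain protein lemd3 (0.62 ± 0.07), the lamin lmnb1 (0.59 ± 0.08) and the nucleoporin nup88 (0.38 ± 0.06) were vegetal. With no block none of these 3 was called, and over the fits without 1 library the log2 ratio lay between 0.10 (without the animal library of female 1) and 1.37 (without that of female 2) for lemd3, and between 0.32 and 0.87 for lmnb1. Chromatin regulators had 22 vegetal and 40 animal calls of 144, with a median log2 ratio of -0.01. With total-count scaling 17 vegetal and 47 animal members were called, and 1 and 0 of the calls held without the block. The acetyltransferase ep300 was vegetal (91.3 and 157 CPM in vegetal, 30.2 and 55.5 CPM in animal, log2 1.54 ± 0.07), the demethylase kdm4a (-0.88 ± 0.06) and the methyltransferase setd1b (-1.30 ± 0.10) animal. Histones and their chaperones had 8 vegetal and 4 animal of 36, with a median log2 ratio of 0.04. When scaled by totals the list had 5 vegetal and 5 animal calls, with 0 and 1 calls left when the block was dropped. The chromatin assembly subunit chaf1b was animal (80.9 and 78.6 CPM in vegetal, 173 and 165 CPM in animal, log2 -1.08 ± 0.07) and the storage chaperone npm1 vegetal (0.35 ± 0.06). Splicing factors had 28 vegetal and 21 animal of 100, with a median log2 ratio of 0.09. By library totals alone there were 19 vegetal and 24 animal calls, and dropping the block left 2 and 0 of the calls. Relative to the median of all models, that of the splicing list was 0.10 with either scaling, which is no support, since rescaling moves all models nearly alike. Among its members lsm4 (1.62 ± 0.10) and rbm33 (1.03 ± 0.07) were vegetal, and srsf6 (-1.26 ± 0.07) and srrm2 (-1.03 ± 0.07) animal. Zinc finger genes had 38 vegetal and 23 animal of 185, with a median log2 ratio of 0.04. Total-count scaling gave 32 vegetal and 30 animal calls, and 4 and 0 of the calls held without the block. The vegetal znf484 (2.90 ± 0.12) and zbtb10 (1.41 ± 0.06) and the animal znf609 (-1.16 ± 0.07) were among them.

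Genes of the ribosome and of oxidative phosphorylation had small ratios. Of 77 cytosolic ribosomal protein mRNAs, 20 (26.0%) were higher in the vegetal and 6 (7.79%) in the animal libraries. Their median log2 ratio was 0.07, but under total-count scaling the calls were 11 and 14. Relative to the median of all models, the median of the list was 0.07 with either scaling. Rescaling moves the ratios of all models nearly alike, so that agreement was fixed in advance and is no support. None of these calls held without the block, where 174 of 2020 vegetal and 88 of 2236 animal calls over all models did. The list's median was 0.15 in female 1 and -0.01 in female 2, and its summed level was 22045 and 30232 CPM in vegetal, 20525 and 30834 CPM in animal libraries. Examples were rpl26 (133 and 184 CPM in vegetal, 87.4 and 154 CPM in animal, log2 0.41 ± 0.07) and rpl18 (185 and 275 CPM in vegetal, 267 and 404 CPM in animal, log2 -0.54 ± 0.06). Mitochondrial ribosomal proteins had 7 vegetal and 6 animal calls of 70, with a median log2 ratio of -0.02. There were 4 vegetal and 13 animal calls under total-count scaling, while 0 and 0 calls held without the block. By adjusted p, mrps10 (0.76 ± 0.07) led the vegetal and mrps27 (-0.53 ± 0.06) the animal members. Oxidative phosphorylation genes had 3 vegetal (3.85%) and 27 animal (34.6%) calls of 78, with a median log2 ratio of -0.08. Scaled by totals, the list had 2 vegetal and 35 animal calls, and without the block 0 and 0 of its calls held. The median of that list was -0.01 in female 1 and -0.15 in female 2. Among its members were the complex V subunit atp5c1 (341 and 381 CPM in vegetal, 446 and 534 CPM in animal, log2 -0.44 ± 0.06) and the complex I subunit ndufa3 (-0.50 ± 0.07), both animal. Translation factors and tRNA synthetases had 12 vegetal and 20 animal of 84, with a median log2 ratio of -0.0048. The counts became 6 vegetal and 24 animal with total-count scaling, and 0 and 1 calls held without the block. The initiation scaffold proteins eif4g3 and eif4g2 were animal, eif4g3 at 24.1 and 15.7 CPM in vegetal, 88.5 and 52.8 CPM in animal (-1.81 ± 0.09) and eif4g2 at -0.83 ± 0.06, with the eIF3 subunit eif3b (199 and 201 CPM in vegetal, 468 and 435 CPM in animal, log2 -1.17 ± 0.06), while the cap-binding protein eif4e was slightly vegetal (0.26 ± 0.07).

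Metabolic enzymes and carriers held a few strong differences. The lipid list had 21 vegetal and 19 animal calls of 98 tested, with a median log2 ratio of 0.08. With total-count scaling 19 vegetal and 22 animal members were called, and 7 and 1 of the calls held without the block. After mogat1 and plin2, the acyl-CoA synthetase acsl1 had 479 and 274 CPM in the vegetal libraries, against 43.4 and 24.4 CPM in the animal libraries, and the lipoprotein receptor ldlr had 223 and 245 CPM in the vegetal libraries, against 35.5 and 34.9 CPM in the animal libraries. The related synthetase acsl3 had 99 and 84.4 CPM in the vegetal libraries, against 339 and 297 CPM in the animal libraries. The 3 genes gave log2 ratios of 3.48 ± 0.07, 2.74 ± 0.07 and -1.80 ± 0.07, and the fatty acid elongase elovl7 (-1.24 ± 0.06) was also animal. Glycolysis and the TCA cycle had 8 vegetal and 10 animal calls of 56, with a median log2 ratio of 0.0099. When scaled by totals the list had 6 vegetal and 17 animal calls, with 1 and 0 calls left when the block was dropped. The glycolytic regulator pfkfb3 was vegetal (495 and 578 CPM in vegetal, 219.9 and 199 CPM in animal, log2 1.36 ± 0.06). Of the succinyl-CoA ligase subunits, suclg2 was vegetal (0.98 ± 0.08) and suclg1 animal (-1.09 ± 0.07). SLC25 carriers had 3 vegetal and 4 animal of 34, with a median log2 ratio of -0.02. By library totals alone there were 3 vegetal and 7 animal calls, and dropping the block left 1 and 0 of the calls. After slc25a22, slc25a12 was vegetal (1.26 ± 0.12), and slc25a34 was animal (22.9 and 31.2 CPM in vegetal, 72.6 and 97.7 CPM in animal, log2 -1.65 ± 0.09). Other solute carriers had 27 vegetal and 24 animal of 148, with a median log2 ratio of -0.0094. Total-count scaling gave 16 vegetal and 24 animal calls, and 2 and 1 of the calls held without the block. Slc12a9 (167 and 152 CPM in vegetal, 14.6 and 11 CPM in animal, log2 3.68 ± 0.09) and slc15a4 (1.83 ± 0.06) were vegetal, and slc18a2 is given above.

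**Figure D4:**
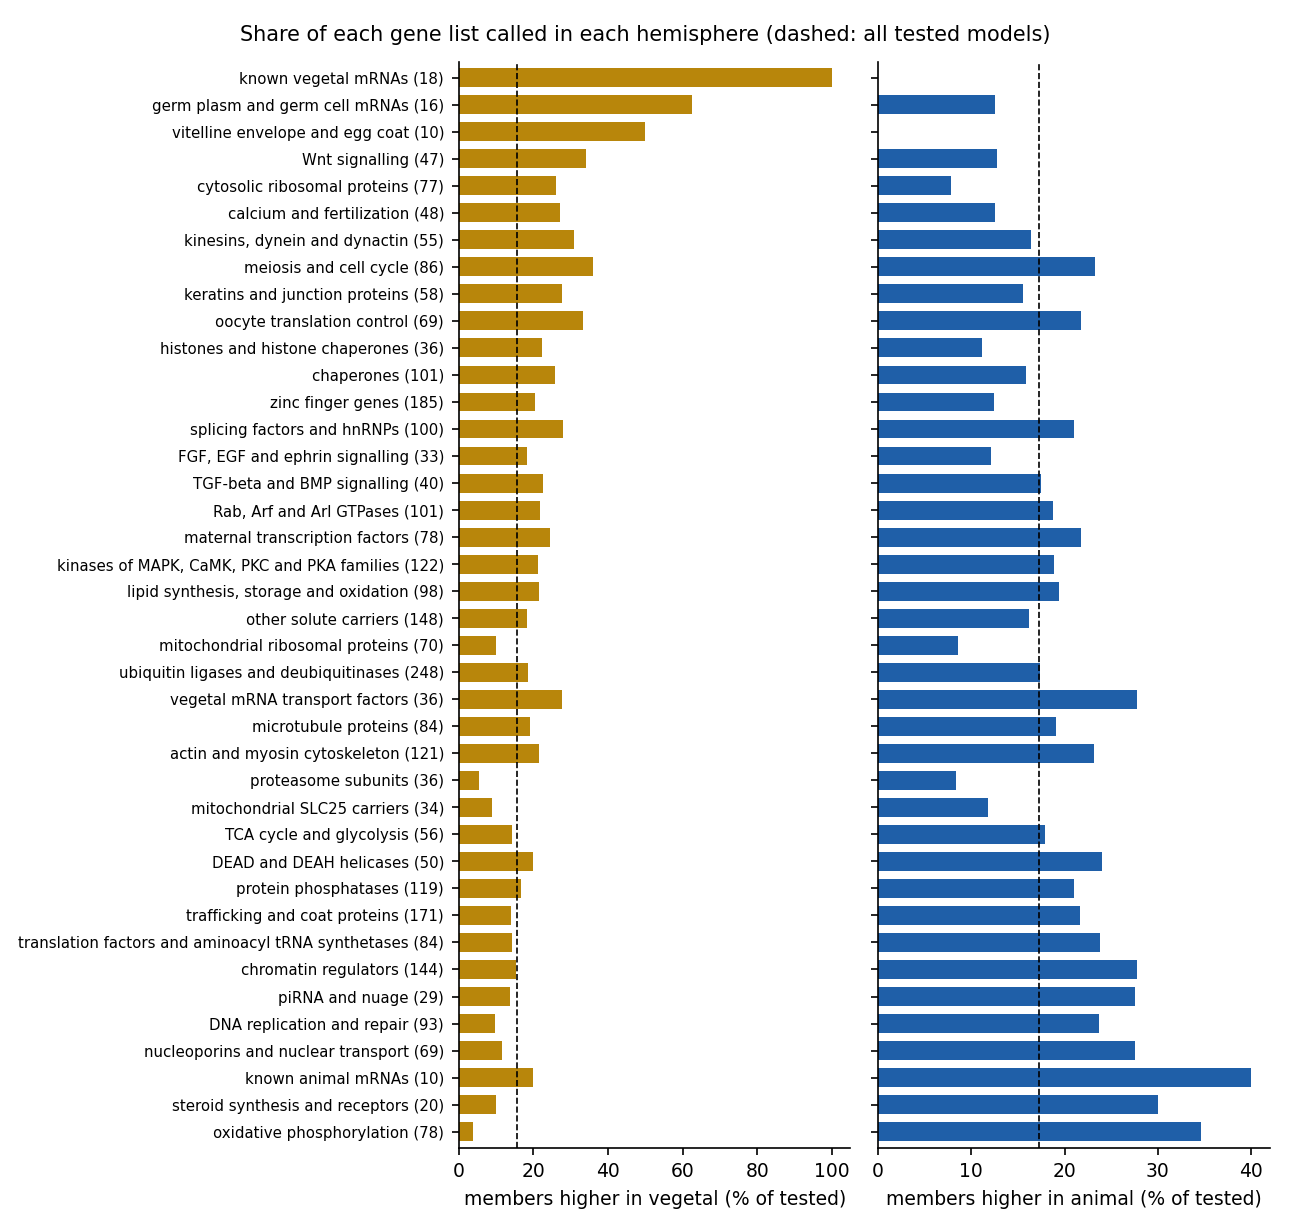
Share of tested members of each gene list called higher in the vegetal (left panel, gold) and in the animal libraries (right panel, blue), in percent, for lists with at least 10 tested members, whose number stands in brackets; dashed lines mark the shares over all tested models, 15.6% and 17.3%. Known vegetal mRNAs and germ plasm mRNAs, which share members, stand far to the right of the vegetal line, and oxidative phosphorylation has the largest excess of animal over vegetal calls. All lists were chosen with earlier results of these data known.

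Cytoskeletal genes gave some of the larger ratios outside the germ plasm. Kinesins, dynein and dynactin had 17 vegetal and 9 animal calls of 55 tested, with a median log2 ratio of 0.08. There were 13 vegetal and 11 animal calls under total-count scaling, while 4 and 1 calls held without the block. The minus-end kinesin kifc3 had 369 and 327 CPM in the vegetal libraries, against 67 and 60.8 CPM in the animal libraries, the dynein light chain dynlt1 had 226 and 277 CPM in the vegetal libraries, against 44.5 and 49.7 CPM in the animal libraries, and the dynein adaptor hook2 had 206 and 256 CPM in the vegetal libraries, against 42.6 and 47.9 CPM in the animal libraries. All 3 were apart between hemispheres in both frogs, at 2.44 ± 0.07, 2.42 ± 0.07 and 2.36 ± 0.07, and kif14 was at 1.27 ± 0.06. Microtubule proteins had 16 vegetal and 16 animal of 84, with a median log2 ratio of -0.01. Scaled by totals, the list had 12 vegetal and 23 animal calls, and without the block 3 and 1 of its calls held. The linker clip4 (194 and 111 CPM in vegetal, 19.6 and 17.9 CPM in animal, log2 2.92 ± 0.08), the centrosome protein pcnt (338 and 329.95 CPM in vegetal, 90.3 and 80.3 CPM in animal, log2 1.98 ± 0.07) and the minus-end protein camsap1 (1.93 ± 0.07) were vegetal. Map4 (182 and 125 CPM in vegetal, 397 and 258 CPM in animal, log2 -1.08 ± 0.06) and the tubulin tubb4 (-0.86 ± 0.07) were animal. Actin and myosin genes had 26 vegetal and 28 animal of 121, with a median log2 ratio of 0.01. The counts became 21 vegetal and 35 animal with total-count scaling, and 3 and 1 calls held without the block. The actin nucleator spire1 had 417 and 669 CPM in the vegetal libraries, against 35.8 and 45.6 CPM in the animal libraries, and its paralog spire2 had 61.4 and 86 CPM in the vegetal libraries, against 117 and 155 CPM in the animal libraries. The pair lay on opposite sides, at 3.74 ± 0.07 and -0.88 ± 0.07. Also vegetal were wasl, an Arp2/3 activator (2.42 ± 0.07), and anln (1.62 ± 0.06). The actin gene actg1 was animal (1486 and 1386 CPM in vegetal, 2601 and 2485 CPM in animal, log2 -0.83 ± 0.06). It was not called without the block (adjusted p = 0.0581, edgeR). Other actin genes, such as actb, were tested and are not given here. Keratins and junction genes had 16 vegetal and 9 animal of 58, with a median log2 ratio of 0.05. With total-count scaling 11 vegetal and 11 animal members were called, and 1 and 0 of the calls held without the block. The claudin cldn4 (476 and 809 CPM in vegetal, 106 and 126 CPM in animal, log2 2.45 ± 0.07) and the keratin krt8 (579 and 392 CPM in vegetal, 171 and 114 CPM in animal, log2 1.77 ± 0.06) were vegetal, and the cadherin cdh16 (-1.04 ± 0.07) and the keratin krt12 (-0.44 ± 0.06) animal.

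Genes of membrane traffic and regulatory enzymes had strongly vegetal members too. Rab, Arf and Arl genes had 22 vegetal and 19 animal calls of 101 tested, with a median log2 ratio of -0.04. When scaled by totals the list had 17 vegetal and 28 animal calls, with 3 and 2 calls left when the block was dropped. The Rab11 effector rab11fip4l was vegetal (750.5 and 846 CPM in vegetal, 122 and 136 CPM in animal, log2 2.63 ± 0.06). Tbc1d14 (-1.40 ± 0.07) and the GTPase arf5 (317 and 299 CPM in vegetal, 624 and 605 CPM in animal, log2 -1.0 ± 0.06) were animal. Coat and sorting genes had 24 vegetal and 37 animal of 171, with a median log2 ratio of -0.02. By library totals alone there were 16 vegetal and 45 animal calls, and dropping the block left 1 and 1 of the calls. The endosomal syntaxin stx12 was vegetal (245 and 269.99 CPM in vegetal, 59.5 and 60.1 CPM in animal, log2 2.11 ± 0.07), the ESCRT subunit chmp2b animal (-1.28 ± 0.07). Kinases of the MAPK, CaMK, PKC and PKA families had 26 vegetal and 23 animal of 122, with a median log2 ratio of -0.0098. Total-count scaling gave 18 vegetal and 27 animal calls, and 4 and 0 of the calls held without the block. The microtubule-affinity kinase mark4 (159.7 and 142 CPM in vegetal, 18.2 and 18.3 CPM in animal, log2 3.03 ± 0.08) and the Cdk5 activator cdk5r2 (85.8 and 90.5 CPM in vegetal, 11.6 and 9.95 CPM in animal, log2 3.07 ± 0.10) were vegetal. Phosphatases had 20 vegetal and 25 animal of 119, with a median log2 ratio of -0.01. There were 12 vegetal and 25 animal calls under total-count scaling, while 2 and 2 calls held without the block. The glycogen-targeting subunit ppp1r3b was vegetal (1508 and 1138 CPM in vegetal, 275 and 194 CPM in animal, log2 2.50 ± 0.06). Besides ptprq, ptpn9 (-1.25 ± 0.08) and ppp2cb, a catalytic subunit of phosphatase 2A (-0.84 ± 0.06), were animal. Ubiquitin ligases and deubiquitinases had 46 vegetal and 43 animal of 248, with a median log2 ratio of -0.01. Scaled by totals, the list had 33 vegetal and 52 animal calls, and without the block 9 and 1 of its calls held. Apart from trim36 the ligases rnf103 (197 and 183 CPM in vegetal, 18.6 and 19.6 CPM in animal, log2 3.29 ± 0.08) and rnf41 (2.28 ± 0.08) were vegetal, and usp54 (48.3 and 24.5 CPM in vegetal, 137 and 66.2 CPM in animal, log2 -1.46 ± 0.08) and rnf216 (-1.26 ± 0.07) animal. Chaperones had 26 vegetal and 16 animal of 101, with a median log2 ratio of 0.06. The counts became 20 vegetal and 18 animal with total-count scaling, and 1 and 0 calls held without the block, that of the mitochondrial cyclophilin ppif (106 and 109.8 CPM in vegetal, 23.1 and 25.3 CPM in animal, log2 2.15 ± 0.08). The chaperonin subunits cct2 (-0.55 ± 0.06) and cct4 (-0.34 ± 0.06) were animal. Proteasome subunits had 2 vegetal and 3 animal of 36, with a median log2 ratio of 0.03. With total-count scaling 1 vegetal and 6 animal members were called, and 0 and 0 of the calls held without the block.

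Genes of the egg surface and of fertilization included a few polarised members. The vitelline envelope list, whose zona pellucida (ZP) glycoproteins surround the oocyte, had 5 vegetal and 0 animal calls of 10 tested, with a median log2 ratio of 0.21. When scaled by totals the list had 5 vegetal and 0 animal calls, with 2 and 0 calls left when the block was dropped. The ZP gene zp2 had 759 and 740.2 CPM in the vegetal libraries, against 379 and 378 CPM in the animal libraries. Its relative zp3 had 453 and 352 CPM in the vegetal libraries, against 163 and 144 CPM in the animal libraries. In both genes the hemispheres were apart in each frog, at 0.98 ± 0.06 and 1.38 ± 0.06. Much smaller vegetal ratios were measured for zp4 (0.22 ± 0.06), zpax (0.24 ± 0.06) and zpy1 (0.23 ± 0.07), while zpd (0.11 ± 0.06) and zp3.2 (0.13 ± 0.06) were not called. Nor was zar1 (0.11 ± 0.09), an oocyte marker that is counted in this list but is not a ZP gene. Calcium genes had 13 vegetal and 6 animal of 48, with a median log2 ratio of 0.06. By library totals alone there were 10 vegetal and 7 animal calls, and dropping the block left 1 and 0 of the calls. The sensor hpca (51.6 and 28.2 CPM in vegetal, 14.8 and 7.48 CPM in animal, log2 1.86 ± 0.12) and the kinase subunit camk2g (93.1 and 86.9 CPM in vegetal, 31.2 and 28.9 CPM in animal, log2 1.58 ± 0.08) were vegetal, as was the store pump atp2a2 (0.71 ± 0.08). The store release channel itpr1 was animal (94.7 and 78.2 CPM in vegetal, 192 and 144 CPM in animal, log2 -0.94 ± 0.07). Steroid genes had 2 vegetal and 6 animal of 20, with a median log2 ratio of -0.12. Total-count scaling gave 2 vegetal and 7 animal calls, and 1 and 0 of the calls held without the block. The cholesterol carrier stard3 was vegetal (106 and 127 CPM in vegetal, 30.5 and 36.9 CPM in animal, log2 1.79 ± 0.08), and the progesterone receptor membrane components pgrmc1 (-0.52 ± 0.09) and pgrmc2 (-0.31 ± 0.07) were animal.

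Levels of some genes differed between the 2 frogs, in both hemispheres alike. These are 2 animals, so the values are given as a description, on a log2 scale with 0.5 CPM added. Both libraries of female 1 were the shallower ones. A difference in depth or handling between the pairs cannot be told apart from one between the animals. Of 9623 models averaging 5 CPM or more, 74 were at least 2-fold higher in female 2 and 260 at least 2-fold higher in female 1 in both hemispheres. At 4-fold the numbers were 10 and 15, and 1 of these 25 was enriched in a hemisphere, fam83h. The signalling protein gene vav1 had 0 and 10.3 CPM in the vegetal libraries and 0.165 and 12.2 CPM in the animal libraries. Both this gene and the next were chosen after their values were seen. In the other direction lekr1 had 132 and 7.85 CPM in vegetal and 181 and 9.33 CPM in animal libraries. The difference from frog to frog was thus larger for these genes than any difference between their hemispheres.

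Where X. tropicalis differed from X. laevis was tested with the 8 X. laevis libraries, 4 vegetal and 4 animal from stage VI oocytes of females A and B with 2 samples each (t1 and t2, a term the labels do not explain), as the interaction of species and hemisphere. The 4 X. laevis pairs entered as 4 separate blocks. The 2 samples of a female thus counted as replicates in the X. laevis errors and in the interaction, though they come from 2 females. X. laevis reads carry X. tropicalis model names, so its duplicated gene copies are summed or shared in a way not given in the sources used here. Of 11688 models tested in both species, 321 (2.75%) were at least 2-fold more vegetal in X. tropicalis and 337 (2.88%) at least 2-fold more animal (adjusted p under 0.05, edgeR). Of the 15 genes with the largest vegetal ratio in X. tropicalis, 8 differed between the species, and of the 14 largest animal ones that could be tested, 7. In X. laevis itself, 14 of the 15 vegetal genes and 11 of the 14 animal ones were called in the same direction, at any size. The share of all models called alike in both species was not counted, so these numbers cannot be read against it. These genes were chosen for their size in X. tropicalis, which favours a larger ratio there.

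Among the germ plasm genes, grip2 (6.90 ± 0.10 in X. tropicalis against 8.35 ± 0.16 in X. laevis, difference -1.28 ± 0.41, adjusted p = 0.083) and ddx25 (difference 0.45 ± 0.27, adjusted p = 0.311) were not called different. The difference was 2.12 ± 0.28 for pat and -1.66 ± 0.37 for nanos1, so pat was more and nanos1 less polarised in X. tropicalis (adjusted p = 0.00207 and 0.02, edgeR). The difference of nanos1 was not called without the block (-1.75), without the pair of female 1 (-1.82) or without that of female 2 (-1.36). Of the transported mRNAs, vegt (2.25 ± 0.10 against 4.23 ± 0.19) and gdf1 (3.79 ± 0.08 against 5.34 ± 0.25) were less polarised in X. tropicalis (differences -1.98 ± 0.30 and -1.55 ± 0.36, adjusted p = 0.00398 and 0.0235), and neither was called different without the pair of female 1 (-1.91 for vegt and -1.49 for gdf1) or that of female 2 (-2.06 and -1.61), nor gdf1 without X. laevis female A (-1.12). Also called different with all libraries were dazl and sybu, less polarised in X. tropicalis, and rtn3, more polarised there. Without the pair of female 1 their differences were -1.59, -1.32 and 1.07 in that order. Without the pair of female 2 they were -1.12, -0.98 and 1.16. The difference of dazl was not called without the block (-1.42) or without X. laevis female A (-1.06). Trim36 was not called different (0.08 ± 0.32, adjusted p = 0.896, edgeR). The widest gaps were in other genes. In X. laevis mogat1 was at 0.29 ± 0.11, pld2 at 0.59 ± 0.08 and slc25a22 at 0.61 ± 0.19, against 4.89 ± 0.09, 4.86 ± 0.17 and 4.02 ± 0.16 in X. tropicalis. The opposite case was gdf3, at 0.08 ± 0.21 in X. tropicalis and 5.62 ± 0.25 in X. laevis (difference -5.54 ± 0.34, adjusted p = 7.84e-05). On the animal side ckap2 (-1.97 ± 0.06 against 0.23 ± 0.10) and slc35d1 (-2.07 ± 0.16 against 0.25 ± 0.14) were animal in X. tropicalis and were not called in X. laevis, while smtn (-2.28 ± 0.07 against -2.42 ± 0.13) and slc18a2 (-2.14 ± 0.07 against -2.80 ± 0.16) were not called different. The 2 species were fitted with a common spread, although the biological coefficient of variation was 0.0468 in X. tropicalis and 0.132 in X. laevis.

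**Figure D5:**
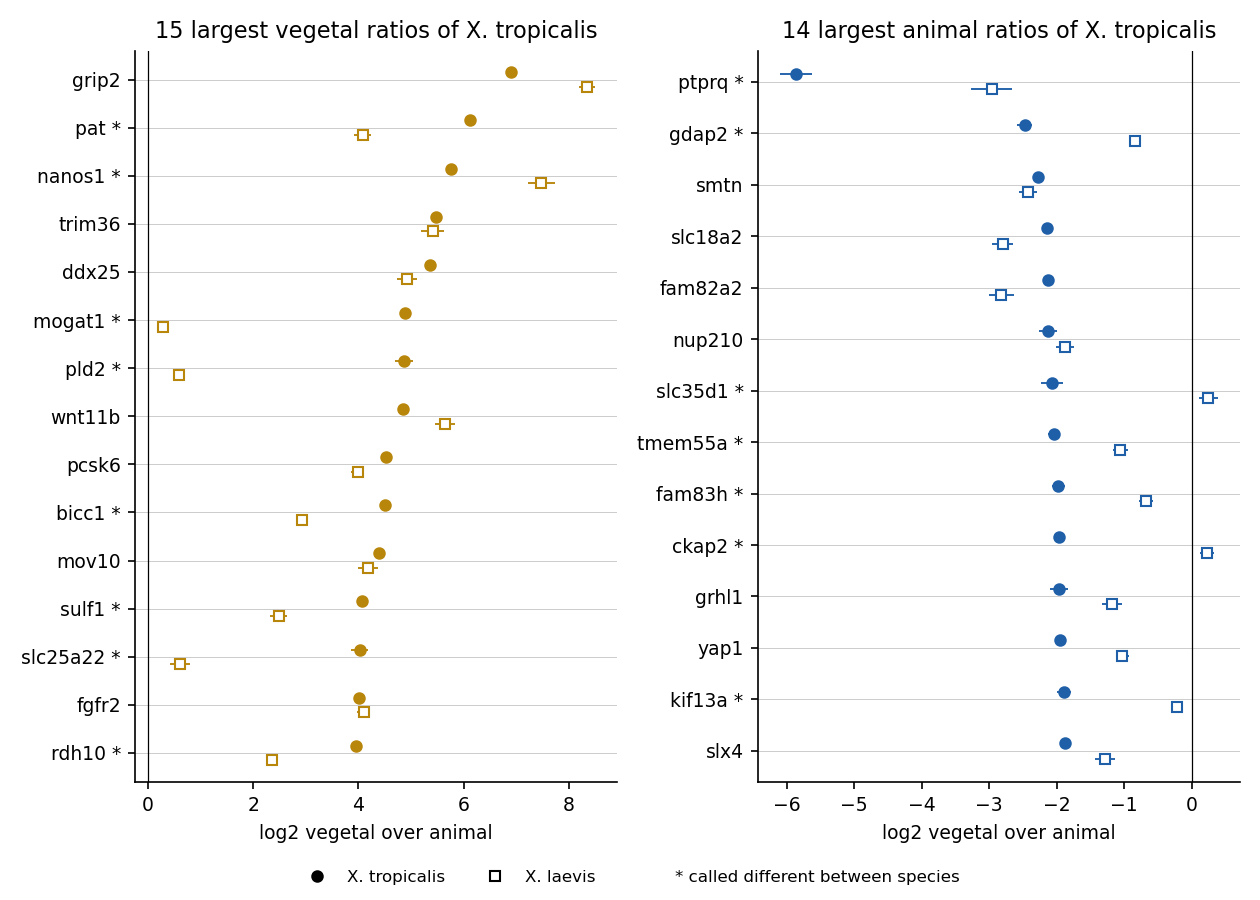
Log2 ratio of vegetal over animal in X. tropicalis (filled circles, 2 females) and X. laevis (open squares, 4 pairs from 2 females, fitted as separate pairs) for the 15 vegetal (left panel, gold) and the 14 animal genes (right panel, blue) with the largest X. tropicalis ratios that could be tested in both species; bars are standard errors and an asterisk marks genes called different between the species. The X. laevis values of mogat1, pld2 and slc25a22 lie lowest in the left panel, at 0.29, 0.59 and 0.61, and those of ckap2 and slc35d1 highest in the right panel, at 0.23 and 0.25.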

How the data were processed

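Per the labels, hemispheres were separated by hand and frozen, and RNA was prepared by proteinase K digestion, phenol-chloroform and precipitation for Illumina sequencing. The authors deposited raw read counts per gene model, with no normalization. Bowtie2 2.1.0, DESeq and edgeR are the tools in the submitters' processing notes, without their roles. Which genome build and counter were used is not given in the sources used here. Strand was not stated, so overlapping or antisense genes, and near-identical paralogs, are uncertain. Symbols come from the deposited annotation, in which 14513 of 28165 models have one.

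From these counts, R 4.3.3 with edgeR 4.0.16 gave the tests, using filterByExpr, TMM factors, and a quasi-likelihood F test with the female as a block, Benjamini-Hochberg adjusted over all models tested. The labels give the frog of each library, which pairs the hemispheres; the deviations of the paired libraries from their group means correlated at 0.797. The libraries of a group were not copies of each other, since their chi-square per degree of freedom was 25.7 (vegetal) and 47.9 (animal). Each model had 1 residual degree of freedom and a prior of 162, so p-values rest mostly on the spread pooled over models. Errors are standard errors (±) derived from the F statistic. CPM use TMM-scaled library sizes, and 2 counts were added for the ratios of single females. Alternatives were no block, size factors of DESeq2, library totals, other filters, DESeq2 1.42.0, and leaving out libraries. The scripts were tested on simulated data, and figures were drawn with matplotlib 3.10.9.

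Members, lists and naming rule were chosen with earlier results of these data known. Named genes were the 15 largest ratios per direction at a mean of at least 5 CPM and with the same direction in both females, the 6 most counted enriched genes per direction, list members with the lowest adjusted p (up to 4 per direction) and all tested members of 7 lists. Many of these are summarised only by their list, and a few are not reported here.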

Additional observations from a re-analysis of the deposited data

Results flagged for a closer look

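The genes below stood out because the difference between the hemispheres was itself different between X. tropicalis and X. laevis, by the test of that difference (edgeR interaction, adjusted p under 0.05 and at least 2-fold), among the 30 genes with the largest X. tropicalis ratios. Values are log2 ratios of vegetal over animal in X. tropicalis against X. laevis, and their difference. More vegetal in X. tropicalis were mogat1 (4.89 against 0.29, difference 4.63), pld2 (4.86 against 0.59, difference 4.28), slc25a22 (4.02 against 0.61, difference 3.44), pat (6.13 against 4.09, difference 2.12), bicc1 (4.51 against 2.93, difference 1.60), sulf1 (4.07 against 2.48, difference 1.59) and rdh10 (3.95 against 2.35, difference 1.58). Less vegetal in X. tropicalis was nanos1 (5.77 against 7.48, difference -1.66). More animal in X. tropicalis were ptprq (-5.86 against -2.96, difference -2.95), slc35d1 (-2.07 against 0.25, difference -2.31), ckap2 (-1.97 against 0.23, difference -2.20), kif13a (-1.89 against -0.22, difference -1.68), gdap2 (-2.47 against -0.84, difference -1.64), fam83h (-1.97 against -0.67, difference -1.28) and tmem55a (-2.05 against -1.06, difference -1.01). Without a pair of X. tropicalis libraries, 4 genes were not called different in either fit: nanos1 (difference -1.82 without female 1 and -1.36 without female 2), sulf1 (1.58 and 1.61), ptprq (-2.69 and -3.71) and tmem55a (-0.78 and -1.26). Fam83h was not called without female 1 (-1.11). Without the block nanos1 (-1.75), fam83h (-1.42) and tmem55a (-1.07) were not called, nor tmem55a without X. laevis female A (-0.95). Reads of both species were assigned to X. tropicalis models, and the part of that assignment in these differences was not tested.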

How the results depend on the processing

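Without the female as a block, 172 vegetal-enriched and 84 animal-enriched models were called (174 and 88 at any size), and the no-block setting kept the call, or the lack of one, for 118 of the 222 genes named here. With no block and 1 library left out, the numbers of vegetal-enriched and animal-enriched models were 143 and 21 without the vegetal library of female 1, 113 and 13 without that of female 2, 319 and 217 when the animal library of female 1 was dropped, and 280 and 258 when that of female 2 was. At any size they lay between 113 and 339 (143 and 293 in between) and between 13 and 288 (21 and 259 in between). A minimum mean of 5 CPM left 236 animal-enriched models, by construction with fewer models tested. DESeq2 1.42.0 called 292 animal-enriched models, and 1011 vegetal and 1097 animal models at any size; the cause was not tested. Size factors of DESeq2 and no filter on low counts moved no count by over 1.5 times. DESeq2 did not call 15 of the 198 genes called and named here, among them fn1, sox3, gdf9, bmpr2, fgfr4, tgfbr1, eif4e, tdrd5 and tdrd6. The fits without 1 library had no block and left a frog unpaired, so differences between the frogs enter their ratios. Called genes whose ratio changed sign in them were acvr1 (-0.0754 and -0.0726), gdf9 (-0.0757) and tdrd6 (0.151 and 0.634). Of the 24 named genes that were not called, 17 changed sign as well. Over the 4 fits without 1 library, the log2 ratios of 19 called genes spanned more than 1, from menf.2 (-12.00 to -4.78), fam83h (-3.50 to -0.35), Xetrov72037541 (-9.25 to -6.13), efnb1 (1.16 to 3.64), nup210 (-3.09 to -1.04), tdrd6 (-1.14 to 0.63), rbm20 (-2.06 to -0.63), grip2 (6.65 to 8.0), acvr2b (0.61 to 1.90), lemd3 (0.10 to 1.37), slc35d1 (-2.69 to -1.43), Xetrov72022738 (6.18 to 7.36), usp54 (-2.03 to -0.87), pld2 (4.34 to 5.47), tdrd1 (-1.69 to -0.56), suclg2 (0.44 to 1.54), atp2a2 (0.18 to 1.26), hpca (1.37 to 2.41) down to foxi2 (-1.75 to -0.72). In the species comparison, no block gave 183 models more vegetal and 185 more animal in X. tropicalis, a minimum of 5 CPM gave 224 more animal ones, and fits without a pair of X. tropicalis libraries gave 137 to 179 and 137 to 152. The 107 animal models of at least 4-fold had a median level of 1.02 CPM, where depth limits their precision.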
